A study of Mus musculus with 17 samples.

Results

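The anti-CD3 response of CD8+ T cells from Cblb knockout (KO) mice was measured by comparing 3 libraries of KO cells stimulated with anti-CD3 for 12 h with 3 libraries of unstimulated KO cells, gene by gene. These 6 libraries were taken by their labels from a series of 17, which spans Cblb wild-type (WT) and KO cells, unstimulated, given anti-CD3, or given anti-CD3 with anti-CD28. Of 53679 gene identifiers in the files, 16246 had enough counts to be tested. All groups came from C57BL/6 mice, and the labels give neither the age nor the sex of the animals, nor which part of Cblb was removed. Whether replicates are different animals is not stated, so the p-values may reflect technical spread alone. The unstimulated libraries are headed D0 and none carries the 12 h label, so the effect of the antibody and that of 12 h in culture cannot be told apart. WT unstimulated and WT anti-CD3 cells (3 libraries each, the same strain and antibody) served to show where the KO response differed.

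Anti-CD3 binds the CD3 chains of the T cell receptor complex and so starts the signal that antigen would start: kinases of the Src, Syk and Tec families act first, followed by calcium, MAP kinase and NF-kappaB signalling. In CD8+ T cells this signal is known to induce cytokines and cytotoxic proteins, and to switch a small resting cell towards growth and division, a switch that is normally helped by costimulation through CD28. Cbl-b, the product of Cblb, is an E3 ubiquitin ligase that restrains signalling from the receptor and is known for making T cells depend on CD28. The KO cells were therefore a setting in which the receptor signal was given alone, without this brake. The study's stated subject is the overproduction of interferon-gamma by such cells.

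Total counts were 17325520 to 38269033 in the KO anti-CD3 libraries, and 19181131, 160059285 and 16640125 in unstimulated replicates 1, 2 and 3. Levels are given as CPM (counts per 1000000 of the scaled library total), and differences as log2 fold changes ± SE. The test was the quasi-likelihood test of edgeR, with p adjusted by Benjamini and Hochberg's method. A gene is called at an adjusted p under 0.05. Cblb itself (ENSMUSG00000022637, a protein-coding gene at GRCm38 chromosome 16, 52031225 to 52208048, plus strand) was counted at 66.2, 68.8 and 63.9 CPM in unstimulated and 78.4, 79.2 and 83.8 CPM in anti-CD3 libraries of KO cells, and averaged 149 ± 10.2 and 187 ± 5.54 CPM in the WT groups (SD, n = 3). The 6 KO libraries lay below the 6 WT ones, and counts outside the removed part would not check the label. Cd8a and Cd8b1, which define the cell type, were both high in every KO library, Cd8a at 1071, 1105 and 1035 CPM unstimulated and 595, 579.9 and 639 CPM after anti-CD3. Cd4 had 12 counts over the 6 libraries and Ncr1 7. Unstimulated replicate 2 stood apart in depth and in a tilt towards GC-rich genes (1.14 on a log2 scale, against 0.17 and 0.50 in the other unstimulated and 0.10 to 0.25 in the anti-CD3 libraries), and Lars2, a transfer RNA synthetase gene of mitochondria, ranged from 1011 to 40396 CPM among the unstimulated libraries. A shift in the RNA of a bulk sample does not tell a change per cell from a change in which cells are present.

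Of the 16246 genes, 3185 were called higher after anti-CD3 (19.6%) and 2804 lower (17.3%), of which 1004 higher (6.18%) and 822 lower (5.06%) changed by at least 2-fold. The median over all genes was 0.024 on the log2 scale. These shares and this median are the values to set beside the counts of each gene list below. In 4263 genes (26.2%) all 3 anti-CD3 libraries lay above all 3 unstimulated ones and in 3805 (23.4%) all lay below. Groups without overlap were thus common among all genes, and are to be read beside these shares where named below. Among protein-coding genes of moderate or high level with groups that did not overlap, the highest changes were those of the chemokine genes Ccl3, Ccl9, Xcl1 and Ccl4, the receptor subunit gene Il2ra, Ifng, Gzmb, and Sema7a, a membrane semaphorin (1.55 to 84.4 CPM, 5.93 ± 0.21). Next came Bcat1 (1.91 to 79.4 CPM, 5.47 ± 0.17), which encodes the cytosolic branched-chain amino acid transaminase, Rgs16, Irf4 and Il12rb2, then the sulfotransferase gene Chst2 (4.57 ± 0.29), Tnfsf11, Spry1, Cxcl10, Tnfrsf9, the adhesion molecule gene Alcam (4.36 ± 0.25), Nr4a3 and Pdcd1. The lowest were the AP-1 genes Fos and Fosb, then Dtx1, Rap1gap2 (15.3 to 1.17 CPM, -3.68 ± 0.27), which encodes a GTPase-activating protein for Rap1, the monocarboxylate transporter relative Slc16a5 (-3.54 ± 0.13), the gamma-glutamyltransferase Ggt1 (-3.52 ± 0.23), Dusp1, the semaphorin co-receptor Nrp2 (-3.16 ± 0.24), Mx1 and Igfbp4. Groups that did not overlap were a condition of this ranking, so the separation of these genes is not a further result. This holds also where a ranked gene is described below.

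**Figure D1:**
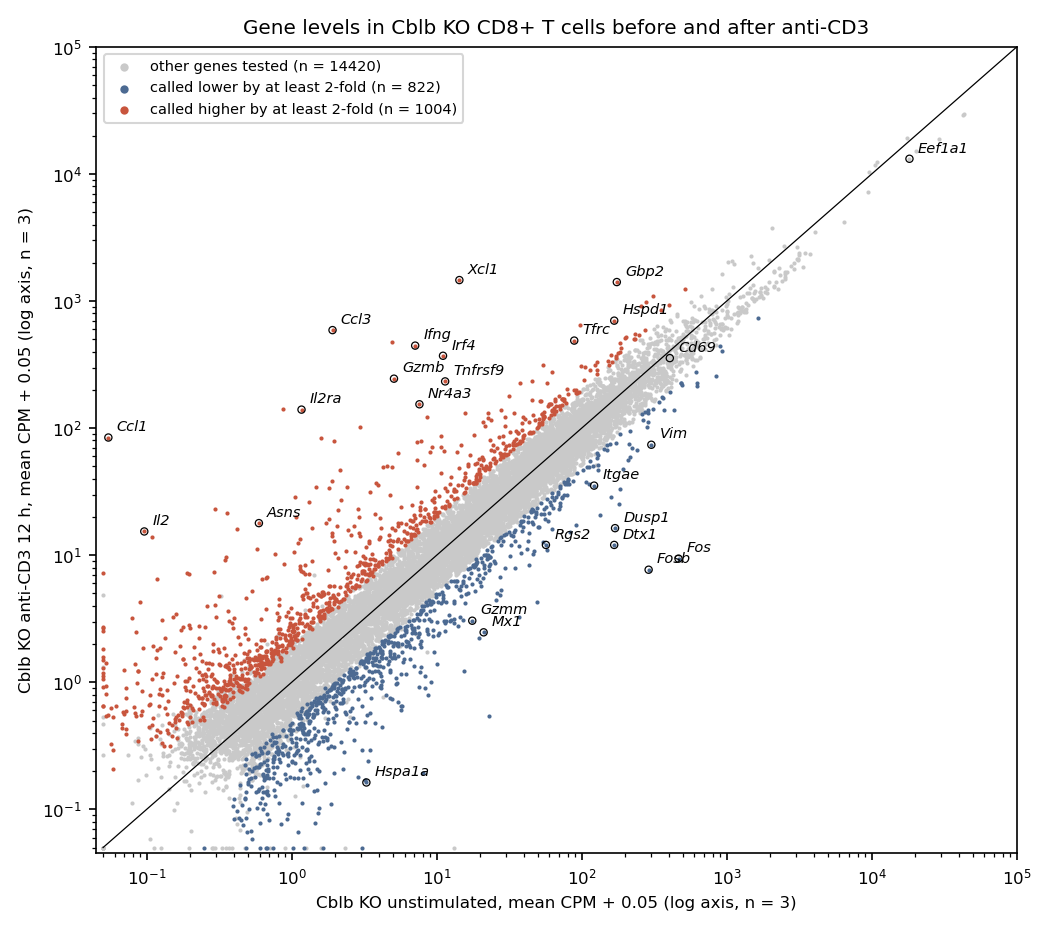
Mean CPM plus 0.05 of each of 16246 genes in KO unstimulated (x axis) and KO anti-CD3 cells (y axis), both axes logarithmic, n = 3 libraries per group, with the line of equal levels. The 1004 genes called higher by at least 2-fold lie above the line and the 822 called lower below it, with cytokine and chemokine genes at the upper left and Fos and Fosb at the lower right.

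Transcription factor genes that the receptor is known to induce early split into a group that was far higher at 12 h and a group that was far lower. Irf4, a factor whose amount is known to follow the strength of the receptor signal, was at 9.88, 10.2 and 12.9 CPM in the unstimulated and 339.6, 352 and 423 CPM in the anti-CD3 libraries (5.09 ± 0.16, adjusted p = 2.26e-13). Nr4a3, an orphan nuclear receptor used as a reporter of receptor signalling, went from 7.92, 8.28 and 6.47 CPM to 137, 154 and 171 CPM (4.33 ± 0.17, adjusted p = 5.35e-12). Separate groups of both genes were a condition of the ranking above. Fos, an AP-1 subunit, was at 502, 552 and 343 CPM in unstimulated and 7.9, 9.23 and 10.9 CPM in anti-CD3 libraries (-5.63 ± 0.18, adjusted p = 2.26e-13), so that the order of the groups was the opposite. The unstimulated level of Fos was lowest in replicate 3, and its separate groups were again a condition of that ranking. Over this list 12 of 23 tested members were called higher and 6 lower (median 1.14), beside a median of 0.024 over all genes. Higher members included Atf3 (0.3 to 9.68 CPM, 5.56 ± 0.53), Fosl1 (0.628 to 6.71 CPM, 3.29 ± 0.28) and Egr2, a factor known from both activation and anergy (12.1, 11.3 and 8.73 CPM against 83.7, 84.1 and 94.6 CPM, 3.02 ± 0.12). The members that fell most were Fos, Fosb (289.6 to 7.64 CPM, -5.22 ± 0.25), Junb (183 to 33.2 CPM, -2.46 ± 0.63), Jun (240.4 to 67.2 CPM, -1.84 ± 0.17) and Ier2 (-1.37 ± 0.26). Batf, an AP-1 partner of Irf4, was not called (-0.45 ± 0.17, adjusted p = 0.0535).

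Genes of the receptor complex itself and of its first kinases and adaptors were mostly lower: 1 of 30 tested members was called higher and 21 lower (median -0.48). Cd8b1, the CD8 beta chain, fell from 919.8, 992 and 863 CPM to 416, 399 and 406 CPM (-1.18 ± 0.086, adjusted p = 1.74e-08). Trac, the constant region of the receptor alpha chain, was at 391, 407 and 375 CPM before and 233, 229.6 and 258 CPM after (-0.70 ± 0.074). Neither gene's groups overlapped. Cd3g (-0.97 ± 0.073), Cd2 (-0.95 ± 0.077) and Lck (-0.87 ± 0.13) were called lower as well, as were Cd3d (-0.63 ± 0.070) and Cd3e (-0.46 ± 0.098). Variable gene segments of the receptor, of which 117 were tested, had 0 called higher and 69 lower (median -0.90). The 8 markers of CD8 T cells summed to 4352 to 4775 CPM in unstimulated and 2547 to 2740 CPM in stimulated libraries.

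Negative regulators of the signal did not move together: 3 of 30 tested members were called higher and 14 lower (median -0.32). Rgs16, which shortens signalling from G protein coupled receptors, rose from 3.76, 2.63 and 2.33 CPM to 100.9, 94.6 and 113 CPM (5.17 ± 0.19, adjusted p = 2.36e-12). Dtx1, an E3 ligase gene known from T cell anergy, fell from 185, 192 and 126 CPM to 13.3, 10.6 and 12.1 CPM (-3.80 ± 0.32, adjusted p = 5.65e-07). The 3 stimulated values of Dtx1 lay close together, and unstimulated replicate 3 was below the other unstimulated libraries. Other members called lower were Rgs2 (56.6 to 12 CPM, -2.23 ± 0.14), Rgs10 (-1.13 ± 0.089), the docking protein gene Dok2 (-1.12 ± 0.18) and the Csk-anchoring protein gene Pag1 (-1.05 ± 0.081), while Ubash3b (0.44 ± 0.087) and Ndfip1 (0.37 ± 0.12) were the remaining higher ones. Ptpn22, a phosphatase gene linked to autoimmunity, was not called (0.11 ± 0.090).

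Feedback inhibitors of MAP kinase signalling had members that rose strongly and members that fell strongly. Among dual-specificity phosphatase and Sprouty genes, 8 of 16 tested members were called higher and 6 lower (median 0.57). Spry1, a feedback inhibitor of Ras signalling, was at 2.02, 1.94 and 2.39 CPM in unstimulated and 45.3, 42.8 and 53 CPM in stimulated libraries (4.51 ± 0.14, adjusted p = 2.11e-13), and Dusp4 (2.63 to 16.9 CPM, 2.62 ± 0.17) and Spry2 (1.53 ± 0.29) were higher too. Dusp1, an immediate-early phosphatase of p38 and JNK, had 179.6, 185 and 145 CPM against 15.9, 16.9 and 16 CPM (-3.39 ± 0.13, adjusted p = 2.36e-12). Dusp10, Dusp6 and Dusp2 fell, with log2 fold changes of -1.24, -0.90 and -0.74. Spry1 and Dusp1 belong to the ranking above, for which groups without overlap were a condition.

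In the NF-kappaB pathway 12 of 25 tested members were called higher and 2 lower (median 0.30). The subunit genes Rel (34.2 to 131 CPM, 1.94 ± 0.14), Nfkb2 (1.54 ± 0.22) and Nfkb1 (1.14 ± 0.094) rose with Nfkbid (1.43 ± 0.11) and Bcl3 (0.99 ± 0.24), which encode nuclear IkappaB proteins. Tnfaip3, encoding the inhibitor A20, fell (342 to 159 CPM, -1.10 ± 0.12), as did Tnfaip8 (-0.73 ± 0.14). Calcium entry genes were more often lower than higher: 3 of 23 tested members were called higher and 10 lower (median -0.30), with the calcium pump genes Atp2a3 (-1.86 ± 0.22) and Atp2a2 (1.06 ± 0.12) at the ends of the range and the store-operated channel gene Orai1 higher (0.71 ± 0.20).

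Cytokine and chemokine genes were among those with the largest differences of the response. Ifng (ENSMUSG00000055170, GRCm38 chromosome 10, 118441046 to 118445892, plus strand) encodes interferon-gamma, the cytokine named in the study's title. It was at 6.18, 7.24 and 7.76 CPM in the 3 unstimulated libraries and 328, 439 and 572 CPM in the 3 anti-CD3 libraries, a log2 fold change of 5.98 ± 0.37 (adjusted p = 2.56e-08). All stimulated libraries were far above the unstimulated ones, with replicate 3 the highest. Il2 (GRCm38 chromosome 3, 37120523 to 37125959, minus strand) had 6 counts in all over the unstimulated libraries and 1212 over the stimulated ones, a ratio of 492 in pooled CPM with a 95% interval of 225 to 1342 for counting error only. Il3 had 0 counts in unstimulated and 589 in stimulated cells, at least 478-fold higher against a floor of 3 counts over the group. Both cytokines were thus detected almost only after stimulation, at 11.4, 16.2 and 18.4 CPM for Il2 and 6.1, 6.19 and 9.43 CPM for Il3. The Il2 ratio and the Il3 bound rest mostly on the depth of unstimulated replicate 2. That library held 160059285 counts, against 19181131 and 16640125 in replicates 1 and 3. Tnf, encoding tumour necrosis factor, was present before stimulation at 20, 26.5 and 24.1 CPM and reached 103, 107 and 140.3 CPM (2.30 ± 0.18, adjusted p = 4.52e-08). Of the T cell cytokines 8 of 14 tested members were called higher and 2 lower (median 2.26). The other members named by the rule were Lif (0.247 to 23.1 CPM, 6.61 ± 0.49), Csf2 (0.436 to 4.53 CPM, 3.55 ± 0.44), which encodes GM-CSF, Il16 (-0.37 ± 0.11) and Flt3l (-1.58 ± 0.099), the last 2 lower. Tgfb1 and Ltb were not called (0.14 ± 0.18 and -0.056 ± 0.28), and Ltb changed sign with a correction for GC content. Among 20 cytokine genes listed, 14 passed the filter on low counts, and a gene induced from 0 passes through the stimulated libraries.

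Of 9 chemokine genes tested out of 13 listed, 8 were called higher and 1 lower. As with the cytokine genes, a member near 0 before stimulation passes the filter through the stimulated libraries. The filter thus sets part of this count. Ccl3, a chemokine for effector T cells and monocytes, rose from 1.18, 1.43 and 2.98 CPM to 498, 585 and 690.3 CPM (8.45 ± 0.32, adjusted p = 2.99e-11). Xcl1, which attracts Xcr1-bearing dendritic cells, rose from 15.2, 13 and 14.7 CPM to 1369, 1418 and 1604 CPM (6.69 ± 0.19, adjusted p = 1.63e-13). Both chemokines belong to the ranking above, for which groups without overlap were a condition. Ccl4 went from 4.38, 4.46 and 5.82 CPM to 423, 459 and 554 CPM (6.64 ± 0.18), Ccl9 from 0.898, 0.344 and 1.23 CPM to 118, 142 and 167 CPM (7.996 ± 0.51), and Ccl1 from 2 counts in all to 76.6, 82.6 and 93.9 CPM, a ratio of 7984 (95% interval 2209 to 65942, counting error only). This ratio too rests mostly on the depth of unstimulated replicate 2. Ccl5, a chemokine of memory and effector cells, was the member that fell (74.2 to 51.3 CPM, -0.53 ± 0.16, adjusted p = 0.0151), a call lost with a correction for GC content (adjusted p = 0.0801) and without anti-CD3 replicate 1 (0.0659) or 2 (0.0551). Ccl3, Ccl4, Ccl5 and Ccl9 all lie on chromosome 11 within the cluster of CC chemokine genes.

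Among TNF superfamily ligands 8 of 11 tested members were called higher and 1 lower (median 2.21). The list held 14 genes, and the same limit of the filter applies to this count. The higher ones were led by Tnfsf11 (RANK ligand, 1.02 to 19.9 CPM, 4.52 ± 0.32), Lta (lymphotoxin alpha, 5.84, 6.03 and 4.27 CPM against 49.5, 58 and 83.6 CPM, 3.54 ± 0.25), Tnfsf9 (3.18 ± 0.34) and Tnfsf14 (8.92 to 64.9 CPM, 2.87 ± 0.16), and the lower one was Tnfsf10, which encodes the death ligand TRAIL (-0.94 ± 0.10).

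Genes of cytotoxic granules went in both directions: 7 of 22 tested members were called higher and 12 lower (median -0.34). Gzmb (ENSMUSG00000015437, GRCm38 chromosome 14, 56258838 to 56262260, minus strand), the serine protease granzyme B, rose from 4.77, 3.64 and 6.66 CPM to 182, 207 and 346 CPM (5.69 ± 0.47, adjusted p = 1.22e-06), with no overlap and the highest level in anti-CD3 replicate 3. The serpins that protect a cell from its own granzymes rose as well, Serpinb9 by 2.52 ± 0.22 and Serpinb6b by 2.56 ± 0.25. Perforin, the pore protein encoded by Prf1, was at 98.9, 113 and 83.1 CPM before and 98.4, 99.4 and 113 CPM after (0.071 ± 0.11, adjusted p = 0.665), and these groups overlapped. Gzmm, another granzyme, fell from 15.2, 16.8 and 20.7 CPM to 3.15, 2.7 and 3.15 CPM (-2.54 ± 0.22, adjusted p = 1.13e-07), with Gzma (5.59 to 0.595 CPM, -3.15 ± 0.73), Gzmk (2.19 to 0.784 CPM, -1.46 ± 0.47), Ctla2a (62.1 to 16.1 CPM, -1.94 ± 0.14) and Ctsw (213 to 75.5 CPM, -1.496 ± 0.13). So granzyme genes differed in sign within the same 6 libraries.

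**Figure D2:**
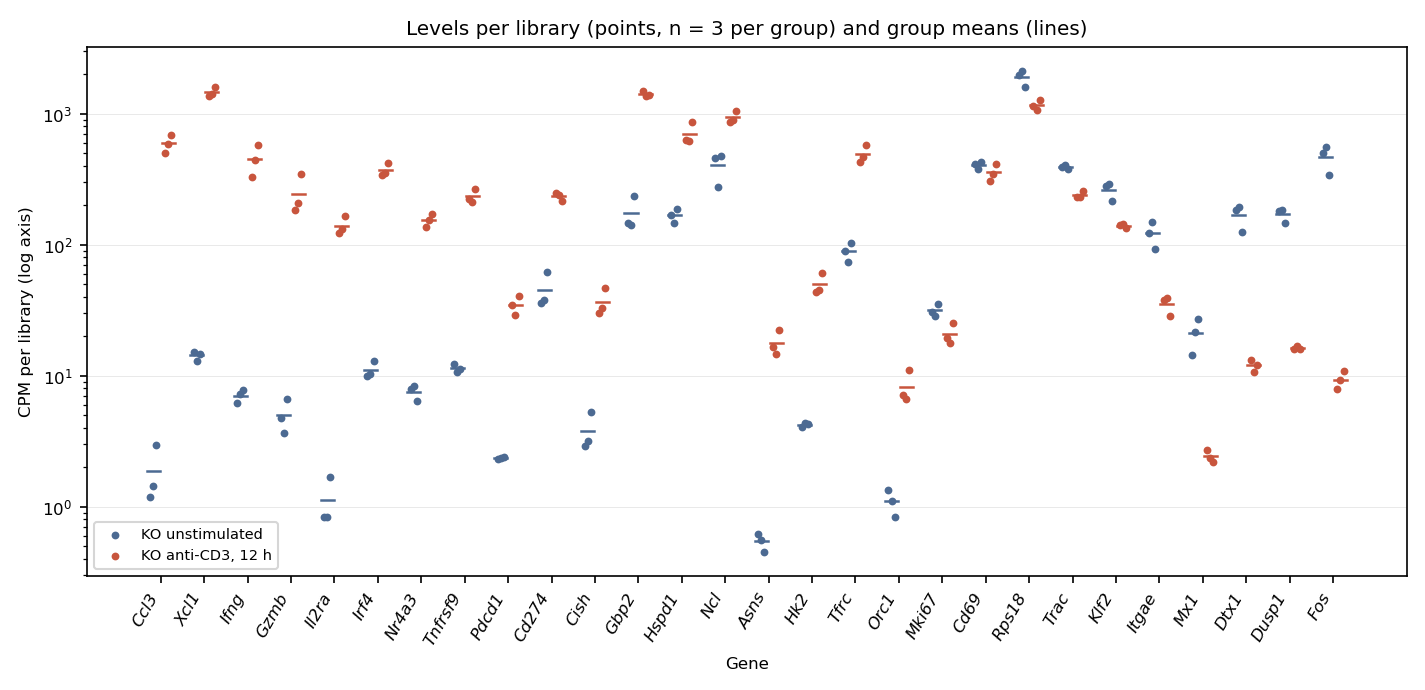
CPM of 28 genes in each KO library (points, logarithmic axis, blue unstimulated and red anti-CD3, n = 3 per group) with group means as lines. The groups lie apart for every gene drawn except Cd69, whose anti-CD3 libraries at 308 to 415 CPM overlap the unstimulated ones at 377 to 427 CPM.

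Transcription factors of effector and memory cells changed in part: 10 of 25 tested members were called higher and 6 lower (median 0.18). Irf8 rose from 8.76, 9.9 and 7.11 CPM to 104, 105 and 157 CPM (3.80 ± 0.17), and Zbtb32 (1.68 to 18 CPM, 3.38 ± 0.25), Zeb2 (3.91 to 35.6 CPM, 3.23 ± 0.30), Bhlhe40 (1.23 ± 0.26) and Hif1a (1.07 ± 0.15) followed. T-bet and Eomesodermin, which direct cytotoxic differentiation, were higher by less than 2-fold, with Tbx21 at 24.6 to 43 CPM (0.81 ± 0.15) and Eomes at 88.5 to 118 CPM (0.41 ± 0.15, adjusted p = 0.0437). The call of Eomes was lost under most alternatives, with adjusted p up to 0.271. Blimp-1, encoded by Prdm1, was not called (-0.70 ± 0.29, adjusted p = 0.064), and Hopx, Tox, Id3, Id2 and Runx1 were called lower at -1.02, -1.01, -0.85, -0.73 and -0.64.

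Genes of naive and quiescent T cells fell more often than they rose: 5 of 32 tested members were called higher and 19 lower (median -0.41). Klf2, a factor that keeps T cells quiescent and circulating, was at 282, 289.5 and 213 CPM unstimulated and 140.2, 143 and 134 CPM stimulated (-0.91 ± 0.13, adjusted p = 2.72e-05). Its target S1pr1, the receptor for egress from lymph nodes, was at 652, 622 and 594 CPM and 472, 458 and 398 CPM (-0.49 ± 0.080, adjusted p = 0.000125). Tcf7, encoding the factor TCF1, went from 634, 630.0 and 512 CPM to 459, 449 and 410.3 CPM (-0.43 ± 0.11). The groups of all 3 genes were apart, although no change reached 2-fold. Only Cdkn2d (-1.39 ± 0.14), Tsc22d3 (-1.08 ± 0.12) and Txnip (-1.01 ± 0.089) fell by at least 2-fold among these members. The interleukin-7 receptor gene Il7r was not called, at 659, 515 and 594 CPM unstimulated and 709, 752 and 609.6 CPM stimulated (0.23 ± 0.10, adjusted p = 0.0936). Bach2, Slfn2, Ssbp2, Myb and Foxp1 were called higher, Bach2 by 0.82 ± 0.096.

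Homing and egress receptors had 1 of 25 tested members called higher, Itgav (1.08 ± 0.15), and 15 lower (median -0.55). Itgae, which encodes the CD103 chain that binds E-cadherin, fell from 123, 149.8 and 92.9 CPM to 38.1, 39.1 and 28.6 CPM (-1.80 ± 0.16, adjusted p = 1.62e-07), and the chemokine receptors Ccr2 and Ccr9 fell too (-1.51 ± 0.23 and -1.47 ± 0.12). The activation marker Cd44 had adjusted p = 0.052 (63.8 to 82.8 CPM, 0.38 ± 0.15), although its groups did not overlap.

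Cytokine receptor genes were led by Il2ra, the high-affinity chain of the interleukin-2 receptor. It was at 0.842, 0.833 and 1.68 CPM unstimulated and 122, 131 and 166 CPM stimulated (7.16 ± 0.29, adjusted p = 3.48e-11). Il12rb2, the signalling chain of the interleukin-12 receptor, was at 1.01, 0.668 and 1.36 CPM and 30.8, 28.2 and 26.7 CPM (5.04 ± 0.23), and Il1rl1 (0.209 to 3.9 CPM, 3.87 ± 0.34), encoding ST2, was also higher. Each of these receptor genes was below 2 CPM in every unstimulated library. Over the list 7 of 26 tested members were called higher and 10 lower (median -0.10), and Il2rb fell (-0.50 ± 0.12) as did Tgfbr3 (-1.15 ± 0.10), Il27ra (-0.78 ± 0.13) and Il21r (-0.71 ± 0.11).

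Members of the costimulatory and of the inhibitory receptor lists rose. Of the costimulatory receptors 10 of 20 tested members were called higher and 6 lower (median 0.40). Tnfrsf9 (4-1BB) rose from 12.2, 10.6 and 11.3 CPM to 222, 212 and 266 CPM (4.37 ± 0.13, adjusted p = 2.11e-13), followed by Slamf1 (10.7 to 71.2 CPM, 2.75 ± 0.18), Crtam (57.5 to 229 CPM, 1.99 ± 0.13) and Slamf7 (28.7 to 86.3 CPM, 1.59 ± 0.16). Cd28, the receptor whose signal was left out here, was not called (0.28 ± 0.12, adjusted p = 0.0694), and neither was the early activation marker Cd69, at 412, 377 and 427 CPM and 308, 345 and 415 CPM (-0.19 ± 0.20, adjusted p = 0.494). Of the inhibitory receptors and ectoenzymes 12 of 22 tested members were called higher and 6 lower (median 0.53). Pdcd1 (PD-1) rose from 2.3, 2.34 and 2.39 CPM to 34.4, 29.1 and 40.3 CPM (3.89 ± 0.17, adjusted p = 2.99e-11) and its ligand gene Cd274 (PD-L1) from 35.7, 38 and 61.6 CPM to 246, 238 and 215 CPM (2.38 ± 0.16). The other ligand, Pdcd1lg2, Cd200, Havcr2 (TIM-3) and Lag3 rose by 3.50, 3.46, 2.52 and 1.82, and Ctla4 by 0.43, with a call at adjusted p = 0.0451 that was lost under most alternatives (up to 0.149). The lower ones included Cd38 (-1.76 ± 0.32), Lair1 (-1.45 ± 0.19), the ectoenzyme CD39 encoded by Entpd1 (-1.36 ± 0.22) and Cd96 (-1.13 ± 0.12).

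Interleukin-2 signals through STAT5, and genes known as its targets were mostly higher: 15 of 22 tested members were called higher and 4 lower (median 0.97). Cish, a feedback inhibitor in this pathway, was at 2.92, 3.17 and 5.24 CPM unstimulated and 30.3, 33 and 46.8 CPM stimulated (3.33 ± 0.26, adjusted p = 4.54e-08), and Socs2 (0.425 to 2.65 CPM, 2.65 ± 0.53) and Cdk6 (1.65 ± 0.16) moved the same way. Socs3 (-1.10 ± 0.20), Bcl2 (-0.51 ± 0.13), Il2rb and Ccnd3 (-0.48 ± 0.14) were the lower members. The list shares Il2ra, Tnfrsf9, Myc and other genes with lists described above and below.

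Interferon-induced genes fell into groups of opposite sign. Most members of the list of interferon-induced GTPases were higher. The list holds the Gbp and Irg families, which restrict intracellular pathogens and are known to be induced strongly by interferon-gamma, and also Mx1 and Mx2. Of it 18 of 21 tested members were called higher and 2 lower (median 1.33), and 14 rose by at least 2-fold. Gbp2 was at 148, 142 and 235 CPM unstimulated and 1495, 1366 and 1376 CPM stimulated (3.02 ± 0.15, adjusted p = 1.75e-10), and Iigp1 at 69.3, 51.5 and 171 CPM and 646, 667 and 637 CPM (2.75 ± 0.34, adjusted p = 2.66e-05). Stimulated libraries lay close together for both genes, whereas unstimulated replicate 3 was well above the other unstimulated libraries. The members that fell were Mx1, an antiviral GTPase that depends on type I interferon (14.3, 21.5 and 27.2 CPM against 2.71, 2.36 and 2.19 CPM, -3.12 ± 0.23, adjusted p = 1.72e-08), and its relative Mx2 (3.43 to 0.521 CPM, -2.73 ± 0.35). Their groups did not overlap either. Genes of these families include near-identical copies among which counting may divide reads, so single values are uncertain.

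Promoter sequences of the 4 most increased GTPase genes with 1 entry in the RefSeq table (GRCm38.p6, 250 bases before to 50 after the start site, on the strand of the gene) are shown because these members rose together. Capitals mark the pattern GAAA, any 2 bases, GAAA, a form of the element bound by interferon regulatory factors, and TTCNNNGAA, a form of the element bound by STAT dimers, on either strand; the 2 patterns overlap in none of the sequences shown. Gbp2 covers chr3:142620413-142620712 and Gbp5 chr3:142496684-142496983, both on the plus strand, and Igtp covers chr11:58199306-58199605 and Irgm2 chr11:58214727-58215026, both on the plus strand.
Gbp2: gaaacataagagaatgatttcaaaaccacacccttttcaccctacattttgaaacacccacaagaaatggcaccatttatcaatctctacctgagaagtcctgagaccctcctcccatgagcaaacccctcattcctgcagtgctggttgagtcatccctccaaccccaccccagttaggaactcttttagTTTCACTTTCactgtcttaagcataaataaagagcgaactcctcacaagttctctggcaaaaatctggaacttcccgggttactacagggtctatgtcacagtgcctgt
Gbp5: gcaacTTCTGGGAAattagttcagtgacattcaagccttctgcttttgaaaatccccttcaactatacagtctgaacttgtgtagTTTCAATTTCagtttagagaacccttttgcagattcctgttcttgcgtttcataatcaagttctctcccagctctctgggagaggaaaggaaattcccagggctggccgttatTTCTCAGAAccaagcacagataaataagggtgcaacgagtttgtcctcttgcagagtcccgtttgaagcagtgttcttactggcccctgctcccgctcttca
Igtp: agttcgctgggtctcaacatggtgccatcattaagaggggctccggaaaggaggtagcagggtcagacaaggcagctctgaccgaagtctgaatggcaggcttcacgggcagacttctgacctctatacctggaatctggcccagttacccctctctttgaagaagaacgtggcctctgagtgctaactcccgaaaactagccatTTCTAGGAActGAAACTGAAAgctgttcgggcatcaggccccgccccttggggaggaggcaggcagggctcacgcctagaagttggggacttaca
Irgm2: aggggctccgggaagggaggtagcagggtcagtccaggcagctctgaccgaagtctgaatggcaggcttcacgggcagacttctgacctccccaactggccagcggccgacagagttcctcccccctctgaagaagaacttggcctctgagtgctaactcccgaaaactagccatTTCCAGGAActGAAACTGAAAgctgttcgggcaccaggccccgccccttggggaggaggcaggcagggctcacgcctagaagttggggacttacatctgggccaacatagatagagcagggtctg
The first pattern lay in the promoter of 10 of the 11 GTPase genes with an entry (90.9%) and of 3.74% of 10096 tested genes with one (3.44% of all 32851 promoters). TTCNNNGAA lay in 6 of the 11 (54.5%) and in 8.35% of tested genes (8.30% of all promoters). In Igtp and Irgm2, which lie near each other on chromosome 11, both patterns have the same spacing. A match is a description of the sequence only.

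Other interferon response genes, those chiefly known from type I interferon, were more often lower: 3 of 33 tested members were called higher and 16 lower (median -0.46). Oas2 (11.2 to 3 CPM, -1.89 ± 0.30), Cmpk2 (-1.70 ± 0.24), Isg20 (-1.49 ± 0.24), Oasl1 (-1.48 ± 0.29) and Rsad2 (-1.33 ± 0.28) led those that fell, while Zbp1 (0.55 ± 0.098) and Parp9 (0.47 ± 0.12) rose. Genes of interferon-gamma signalling and its feedback had 9 of 14 tested members called higher and 2 lower, with Cxcl10, a chemokine induced by interferon-gamma, at 1.35, 1.84 and 2.39 CPM and 37.9, 37.4 and 39.7 CPM (4.37 ± 0.18, adjusted p = 1.01e-11), and Socs1, a feedback inhibitor, higher (23.2 to 53.2 CPM). Of 19 immunoproteasome and MHC class I loading genes 4 were called higher, or 8 with the GC correction, and 2 lower (median 0.098). The shares of 21.1% and 10.5% were near or below those of all genes (19.6% and 17.3%). The chaperones Calr, Canx and Pdia3 and the activator subunit Psme2 rose, by 0.78, 0.77, 0.74 and 0.36. In the unstimulated KO libraries, replicate 3 was the highest for 20 of the 21 GTPases and for 28 of the 33 type I genes. Without that replicate the GTPases again had 18 called higher and 2 lower, and the type I genes 5 and 14.

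Genes needed to build ribosomes rose almost throughout: 32 of 35 tested members were called higher and 0 lower (median 0.78). Nop16, a nucleolar factor, was at 20.6, 19.8 and 16.9 CPM unstimulated and 47, 47.3 and 63.8 CPM stimulated (1.46 ± 0.15, adjusted p = 1e-06). Ncl, encoding the abundant nucleolar protein nucleolin, was at 457, 275 and 476 CPM and 866, 887 and 1048 CPM (1.22 ± 0.17, adjusted p = 3.03e-05). In both genes all stimulated libraries were above all unstimulated ones, and the GC-tilted unstimulated replicate 2 was the lowest for Ncl. Wdr12, Nop58 and Gar1 rose by 1.34 ± 0.11, 1.33 ± 0.19 and 1.197 ± 0.15. Bop1, Npm3 and Polr1c were the members not called (0.37 ± 0.15, 0.31 ± 0.13 and 0.17 ± 0.12). With the GC correction each of them was called higher (adjusted p = 4.49e-05, 0.0328 and 0.0301). CACGTG, the E-box bound by Myc and related factors, lay in the promoters of 8 of 30 of these genes with an entry (26.7%) and of 11.8% of tested genes with one (7.15% of all promoters). Myc itself was at 68.8, 89.2 and 61.2 CPM and 154, 153 and 197 CPM (1.198 ± 0.12, adjusted p = 1.05e-06), and in its network Mxd4, an antagonist, fell (84.5 to 43.3 CPM, -0.97 ± 0.16).

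The genes for the proteins of the cytosolic ribosome moved the other way: 0 of 40 tested members were called higher and 33 lower (median -0.59), although none by 2-fold. Rps18 was at 1976, 2111 and 1592 CPM unstimulated and 1143, 1061 and 1271 CPM stimulated (-0.71 ± 0.18, adjusted p = 0.00565), without overlap. Rpl12, Rps27, Rps19 and Rpl13 were lower at -0.86, -0.71, -0.70 and -0.65. These values are shares of the library, and the total RNA per cell is not given in the sources used here. Ribosomal protein genes have many near-identical pseudogenes, so counting may divide their reads. Eef1a1, which encodes an elongation factor and was among the 5 genes with the highest CPM in unstimulated KO cells, fell from a mean of 18226 ± 311 to 13189.5 ± 566 CPM (SD, n = 3, -0.47 ± 0.088, adjusted p = 0.000507). For proteins of the mitochondrial ribosome 19 of 35 tested members were called higher and 1 lower (median 0.46), with Mrps22 and Mrpl15 highest (0.93 ± 0.18 and 0.90 ± 0.12).

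Translation factors were mostly higher: 23 of 28 tested members were called higher and 3 lower (median 0.76). Eif4ebp1 (2.7 to 10.6 CPM, 1.96 ± 0.19), which binds the cap-binding factor, Eef1e1 (1.44 ± 0.22), Eif5a (1.39 ± 0.11) and Eif4e, the cap-binding factor itself (1.28 ± 0.19), led them. The lower members were Pdcd4, an inhibitor of initiation (383 to 196 CPM, -0.97 ± 0.093), and the elongation factors Eef1b2 (-0.52 ± 0.094) and Eef1a1. Among transfer RNA synthetases 18 of 22 tested members were called higher and 1 lower (median 0.72). Wars, which loads tryptophan and is also known as an interferon-gamma target, had the highest fold of the list, at 50.7, 54.2 and 58.1 CPM and 327, 307 and 301 CPM (2.52 ± 0.13, adjusted p = 3.36e-10), ahead of Iars (1.28 ± 0.11), Cars (1.22 ± 0.16) and Aars (1.10 ± 0.13).

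**Figure D3:**
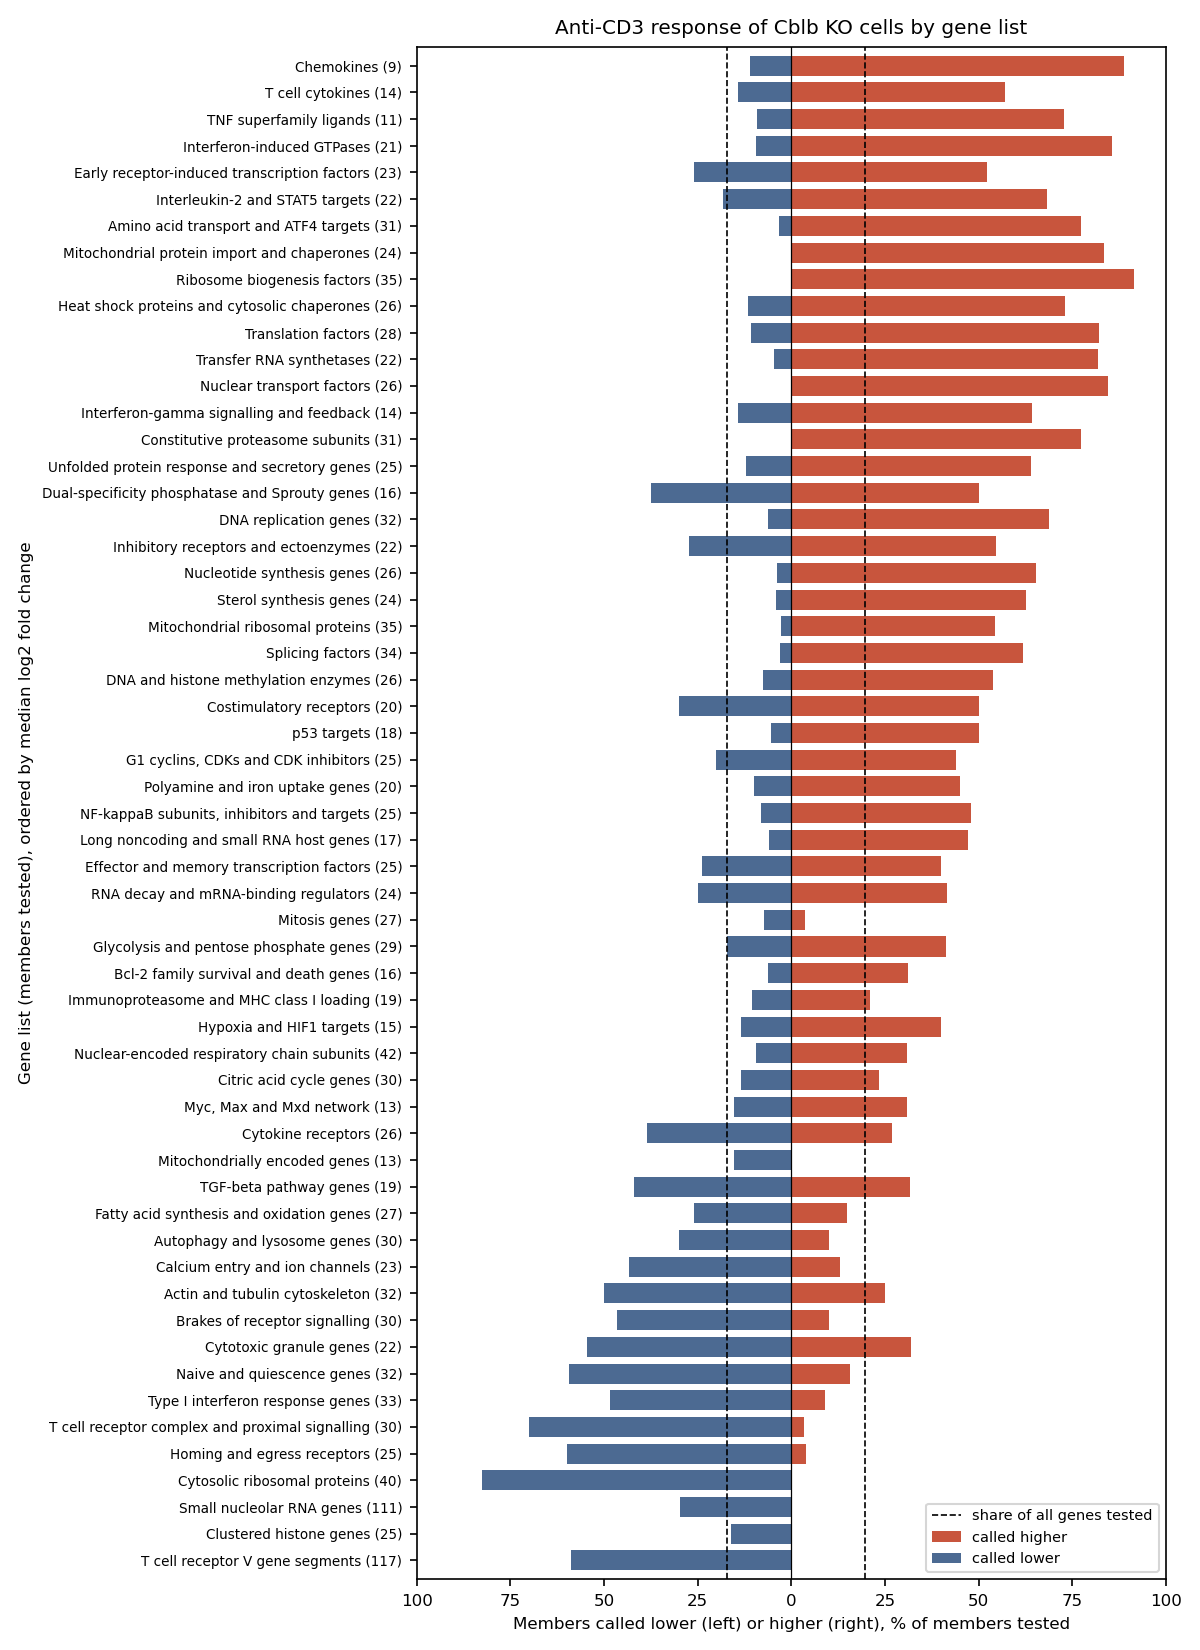
Share of tested members called higher (red, right) or lower (blue, left) in 57 gene lists, with the number tested in brackets and lists ordered by median log2 fold change. Dashed lines give the shares over all 16246 genes, 19.6% higher and 17.3% lower, which ribosome biogenesis factors exceed on the right (91.4%) and cytosolic ribosomal proteins on the left (82.5%).

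Amino acid supply was among the metabolic groups that rose most. Of amino acid transporters, synthesis enzymes and other targets of the stress factor ATF4, 24 of 31 tested members were called higher and 1 lower (median 0.92). Asns, asparagine synthetase, was at 0.618, 0.562 and 0.453 CPM unstimulated and 16.6, 14.6 and 22.4 CPM stimulated (5.01 ± 0.29, adjusted p = 1.26e-09). Slc7a5, a transporter of large neutral amino acids, was at 38.2, 39.4 and 38.1 CPM and 99, 98.8 and 129 CPM (1.497 ± 0.13, adjusted p = 1.14e-07). The groups of neither gene overlapped. Cth, which makes cysteine from cystathionine, had 0 counts in unstimulated and 225 in stimulated cells, at least 183-fold higher against 3 counts over the group. Chac1 had 8 counts and 100, a ratio of 30.4 (95% interval 14.9 to 72.4), and Slc7a11 had 4 and 41, a ratio of 24.9 (9.03 to 95.9), with intervals for counting error only, and the call of Slc7a11 was lost with voom (adjusted p = 0.0718). These ratios and the Cth bound rest mostly on the depth of unstimulated replicate 2. Ddit4, an inhibitor of mTORC1, was the member that fell (40.5, 33.7 and 29.8 CPM against 7.61, 7.32 and 8.76 CPM, -2.13 ± 0.18), and Atf4 and Slc38a2 were not called (0.13 ± 0.11 and 0.070 ± 0.093).

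The promoters of the 3 most increased genes of this list with 1 RefSeq entry are shown for the same reason, on the strand of each gene, with capitals for TGATGNAA, a form of the element bound by ATF4 and its partners, on either strand. Asns covers chr6:7693160-7693459 on the minus strand, Chac1 chr2:119350992-119351291 on the plus strand and Slc7a11 chr3:50443564-50443863 on the minus strand.
Asns: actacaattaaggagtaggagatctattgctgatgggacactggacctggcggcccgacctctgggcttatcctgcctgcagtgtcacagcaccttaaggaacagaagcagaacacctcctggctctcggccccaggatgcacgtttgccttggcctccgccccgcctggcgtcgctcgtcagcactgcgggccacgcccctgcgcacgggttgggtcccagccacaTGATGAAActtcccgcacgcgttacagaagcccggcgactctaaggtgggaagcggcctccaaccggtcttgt
Chac1: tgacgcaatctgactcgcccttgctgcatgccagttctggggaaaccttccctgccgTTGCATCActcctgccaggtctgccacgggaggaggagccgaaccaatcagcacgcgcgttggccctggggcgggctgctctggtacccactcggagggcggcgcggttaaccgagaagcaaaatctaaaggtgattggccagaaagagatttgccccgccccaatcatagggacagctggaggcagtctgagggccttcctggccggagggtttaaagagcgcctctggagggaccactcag
Slc7a11: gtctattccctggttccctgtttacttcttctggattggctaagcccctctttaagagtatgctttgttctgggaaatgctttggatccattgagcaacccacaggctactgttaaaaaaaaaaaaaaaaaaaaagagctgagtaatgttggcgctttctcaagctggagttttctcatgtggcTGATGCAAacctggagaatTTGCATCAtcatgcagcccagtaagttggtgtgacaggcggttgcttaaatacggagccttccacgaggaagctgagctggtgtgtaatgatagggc
TGATGNAA lay in the promoters of 7 of 26 genes of the list with an entry (26.9%), of 2.77% of tested genes with one and of 3.97% of all promoters. Slc7a11 held 2 matches, in opposite directions.

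Glycolysis and pentose phosphate genes rose in part: 12 of 29 tested members were called higher and 5 lower (median 0.17). Hk2, the inducible hexokinase, was at 4.04, 4.34 and 4.27 CPM unstimulated and 43.3, 45.2 and 60.6 CPM stimulated (3.55 ± 0.17, adjusted p = 7e-11), whereas Hk1 fell (111 to 73.8 CPM, -0.59 ± 0.13). Pgam1 (1.10 ± 0.13), Pgk1 (0.84 ± 0.13), the lactate transporter gene Slc16a1 (0.76 ± 0.15) and Tpi1 (0.65 ± 0.13) rose, and Gpi1, Eno1 and Pfkp were not called (-0.24, -0.26 and 0.18). Apart from Hk2 and Pgam1, the higher members rose by less than 2-fold.

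Nucleotide synthesis genes rose more evenly: 17 of 26 tested members were called higher and 1 lower (median 0.52), with Umps (36.5 to 90.8 CPM, 1.32 ± 0.098), which completes uridine monophosphate, Dctpp1 (7.12 to 17.2 CPM, 1.26 ± 0.19) and Ctps (34.1 to 78.5 CPM, 1.204 ± 0.15) highest. Of polyamine and iron uptake genes 9 of 20 tested members were called higher and 2 lower (median 0.30). Tfrc, the transferrin receptor, was at 89, 74.2 and 103 CPM and 428, 465 and 574 CPM (2.46 ± 0.22, adjusted p = 6.16e-07), and the polyamine enzymes Srm and Odc1 rose by 1.77 ± 0.17 and 1.03 ± 0.14. The stimulated libraries lay far above the unstimulated ones for Tfrc. Of sterol synthesis genes 15 of 24 tested members were called higher and 1 lower (median 0.49), with Idi1 (21 to 113 CPM, 2.45 ± 0.23), Cyp51 (26.8 to 85.6 CPM, 1.68 ± 0.14) and Sqle (13 to 32.2 CPM, 1.32 ± 0.15) highest. Among fatty acid genes, Acaca (0.96 ± 0.099) and Fasn (0.94 ± 0.23) of synthesis rose, and Cpt1a, the entry step of mitochondrial oxidation, fell (73.1 to 28.5 CPM, -1.36 ± 0.13), as did Acacb (-2.92 ± 0.44), which encodes the carboxylase that restrains it, and the desaturase gene Scd2 (-1.23 ± 0.13). That list had 4 of 27 tested members called higher (14.8%) and 7 lower (25.9%), beside 19.6% and 17.3% of all genes. With DESeq2 or the GC correction 12 were lower.

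Mitochondrial genes differed by function. Of protein import factors and chaperones 20 of 24 tested members were called higher and 0 lower (median 0.87), led by Hspd1, the chaperonin HSP60, at 169, 146 and 188 CPM and 626, 623 and 857 CPM (2.07 ± 0.20, adjusted p = 1.21e-06). Timm10 (1.06 ± 0.15), Timm23 (1.05 ± 0.13) and Tomm5 (1.04 ± 0.13) rose too. Of the citric acid cycle genes 7 of 30 were called higher and 4 lower (median -0.032), and of nuclear-encoded respiratory chain subunits 13 of 42 higher and 4 lower (median 0.038), shares nearer to those of all genes. The counts of higher genes were 3 and 6 without anti-CD3 replicate 3 and 4 and 7 without unstimulated replicate 1, and 7 citric acid cycle genes were lower with the GC correction. Cycs, cytochrome c, was the highest of the latter (73.4 to 169.6 CPM, 1.21 ± 0.16). Of 13 mitochondrially encoded genes, mt-Co1 (-0.40 ± 0.12) and mt-Co3 (-1.54 ± 0.27) were lower and none was called higher, with 5 lower under the GC correction. The lower share of 15.4% in the main fit was near the 17.3% of all genes. Among 15 hypoxia and HIF1 targets 6 were higher and 2 lower, with Vegfa at 2.02 ± 0.22.

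Most genes of DNA replication rose, whereas few genes of mitosis passed the test in either direction. Of the DNA replication genes 22 of 32 tested members were called higher and 2 lower (median 0.53). Orc1, a subunit of the origin recognition complex, was at 1.35, 1.1 and 0.841 CPM unstimulated and 7.07, 6.58 and 11 CPM stimulated (2.90 ± 0.31, adjusted p = 1.27e-06), without overlap, and Gins1 (2.02 ± 0.27), Mcm10 (1.60 ± 0.30), Cdc45 (1.37 ± 0.24) and Cdc6 (1.32 ± 0.23) followed. Dnmt1, the maintenance DNA methyltransferase, and the chromatin assembly gene Chaf1b were lower (-0.34 and -0.49). Among G1 cyclins, their kinases and inhibitors 11 of 25 tested members were called higher and 5 lower (median 0.34), with Cdkn1a, encoding the inhibitor p21, at 4.06 ± 0.54 and Cdk6 at 1.65 ± 0.16 against Cdkn2d, E2f2 (-1.25 ± 0.18) and Cdkn2c (-0.81 ± 0.24) lower.

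Mitosis genes had 1 of 27 tested members called higher, Ndc80 (0.44 ± 0.12, not called with a correction for GC content, adjusted p = 0.169, nor without anti-CD3 replicate 1 or unstimulated replicate 3, adjusted p = 0.0536 and 0.0552), and 2 lower, Kif23 (-1.49 ± 0.13) and Ccnb2 (-1.04 ± 0.29), a median of 0.17. Mki67, the proliferation marker Ki-67, was at 30.8, 28.6 and 35.2 CPM and 19.5, 17.6 and 25.3 CPM (-0.59 ± 0.27, adjusted p = 0.099). Its stimulated libraries all lay below its unstimulated ones, without a call. Of 25 clustered histone genes 0 were called higher and 4 lower (16.0%, median -0.73), beside 19.6% and 17.3% of all genes. The lower share was thus near that of all genes. The count of lower ones was 1 without anti-CD3 replicate 1 or 2, 8 without unstimulated replicate 3 and 17 with voom. Enzymes of DNA and histone methylation had 14 of 26 members higher and 2 lower, led by the de novo DNA methyltransferase gene Dnmt3a (65.8 to 164 CPM, 1.31 ± 0.097), while the demethylase gene Tet1 fell (32.1 to 9.81 CPM, -1.72 ± 0.16).

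Survival genes of the Bcl-2 family that oppose cell death rose for some members: Bcl2a1d (2.25, 2.01 and 2.13 CPM against 26, 27.6 and 28.4 CPM, 3.70 ± 0.24, adjusted p = 4.31e-09), Bcl2a1b (2.57 ± 0.19), Bcl2l1 (1.40 ± 0.14) and Mcl1 (0.36 ± 0.11) were higher, and Bcl2 was lower. The first 2 are close paralogs, so their separate values are uncertain. Bcl2l11, which encodes the death activator Bim, was higher too (0.46 ± 0.077). Of 18 p53 targets 9 were called higher and 1 lower, with Cdkn1a, Perp (2.76 ± 0.47) and Phlda3 (2.68 ± 0.65) at the top, all below 3 CPM.

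Most chaperone genes rose. Of heat shock proteins and cytosolic chaperones 19 of 26 tested members were called higher and 3 lower (median 0.76). Hsph1 was at 53, 57.3 and 44.5 CPM and 163, 159 and 170.0 CPM (1.66 ± 0.13, adjusted p = 2.7e-08), with Hsp90aa1 (1.26 ± 0.18), Stip1 (1.202 ± 0.11) and the chaperonin subunit gene Cct6a (1.12 ± 0.18). Hspa1a and Hspa1b, near-identical stress-inducible HSP70 genes, fell (-4.98 ± 0.85 and -3.16 ± 0.56), and Hspa1a was at 0.73, 5.97 and 2.98 CPM in unstimulated libraries, a spread of several fold. In the unfolded protein response and secretory list 16 of 25 tested members were called higher and 3 lower (median 0.63), and in the constitutive proteasome 24 of 31 tested members were called higher and 0 lower (median 0.64), led by Psmd1 and Psmd7 (1.16 ± 0.13 and 1.12 ± 0.10). Autophagy and lysosome genes had 3 of 30 higher and 9 lower (14 with the GC correction), with Gabarapl1 highest (2.25 ± 0.23) and the cathepsin genes Ctsa and Ctsb lower (-0.76 ± 0.14 and -0.76 ± 0.075).

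Many RNA processing genes rose as well. Nuclear transport factors had 22 of 26 called higher and 0 lower (median 0.71), with Rcc1, the exchange factor of Ran, at 16.5 to 51.9 CPM (1.65 ± 0.12), and splicing factors had 21 of 34 higher and 1 lower, with Magohb and Hnrnpll at 1.58 ± 0.21 and 1.56 ± 0.18. Among regulators of messenger RNA decay 10 of 24 were higher and 6 lower. Zfp36, which encodes tristetraprolin, a protein that destabilises cytokine messages, fell from 217, 248 and 165 CPM to 57.2, 53.7 and 58.2 CPM (-1.90 ± 0.14, adjusted p = 2.25e-08), while Ybx3 rose (22.5 to 120.0 CPM, 2.41 ± 0.12). Of host genes of small and long noncoding RNAs 8 of 17 were higher and 1 lower. Mir155hg, the host transcript of miR-155, was at 0.842, 1.16 and 1.81 CPM and 20.1, 28.8 and 29.2 CPM (4.41 ± 0.33, adjusted p = 4.74e-08), and Mir17hg, host of the miR-17 cluster, rose by 1.87 ± 0.17. Mature miRNAs were not measured. Small nucleolar RNA genes had 111 tested members with 0 called higher and 33 lower (median -0.60), with 12 lower without the deep unstimulated replicate 2 and 57 without unstimulated replicate 3.

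Cytoskeleton genes moved in both directions. The tubulin genes Tubb6 (1.502 ± 0.27), Tuba1c (0.98 ± 0.12) and Tuba1b (0.94 ± 0.096) rose with the actin-capping gene Capg (8.06 to 51.2 CPM, 2.64 ± 0.17). Vim, the intermediate filament vimentin, fell (309, 325 and 273 CPM against 60.7, 71 and 90.3 CPM, -2.03 ± 0.15, adjusted p = 2.7e-08), and so did Flna (-1.16 ± 0.14), Coro1a (-0.96 ± 0.26), Cotl1 (-0.96 ± 0.21) and Tmsb10 (-0.92 ± 0.17). Over the list 8 of 32 tested members were called higher and 16 lower (median -0.31). In the TGF-beta pathway 6 of 19 tested members were called higher and 8 lower (median -0.14), with the receptor gene Tgfbr3 and the inhibitor gene Smad7 (-0.69 ± 0.10) among the lower ones.

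Markers of other cells moved too. B cell markers summed to 386 to 453 CPM in unstimulated and 204 to 231 CPM in stimulated KO libraries, of which Ighm made up most (391, 411 and 345 CPM against 212, 196 and 188 CPM, -0.94 ± 0.11). Cd22 fell from 7.41, 8.05 and 9.38 CPM to 1.11, 0.675 and 0.775 CPM (-3.27 ± 0.28). Myeloid markers summed to 7.69 to 9.27 CPM and 5.62 to 6.22 CPM, dendritic cell markers to 371 to 487 and 327 to 358 CPM, mostly from Ccr7, which T cells express, and red cell and platelet markers to 3.68 to 5.78 and 2.19 to 5.23 CPM. Natural killer markers summed to 105 to 110.3 and 105 to 155 CPM, mostly from Eomes, and CD4 and regulatory T cell markers to 76.6 to 80.5 and 187 to 231 CPM, mostly from Il2ra in the latter, with Foxp3 at 1.71 to 1.57 CPM. Their part in the gene results was not tested.

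**Figure D4:**
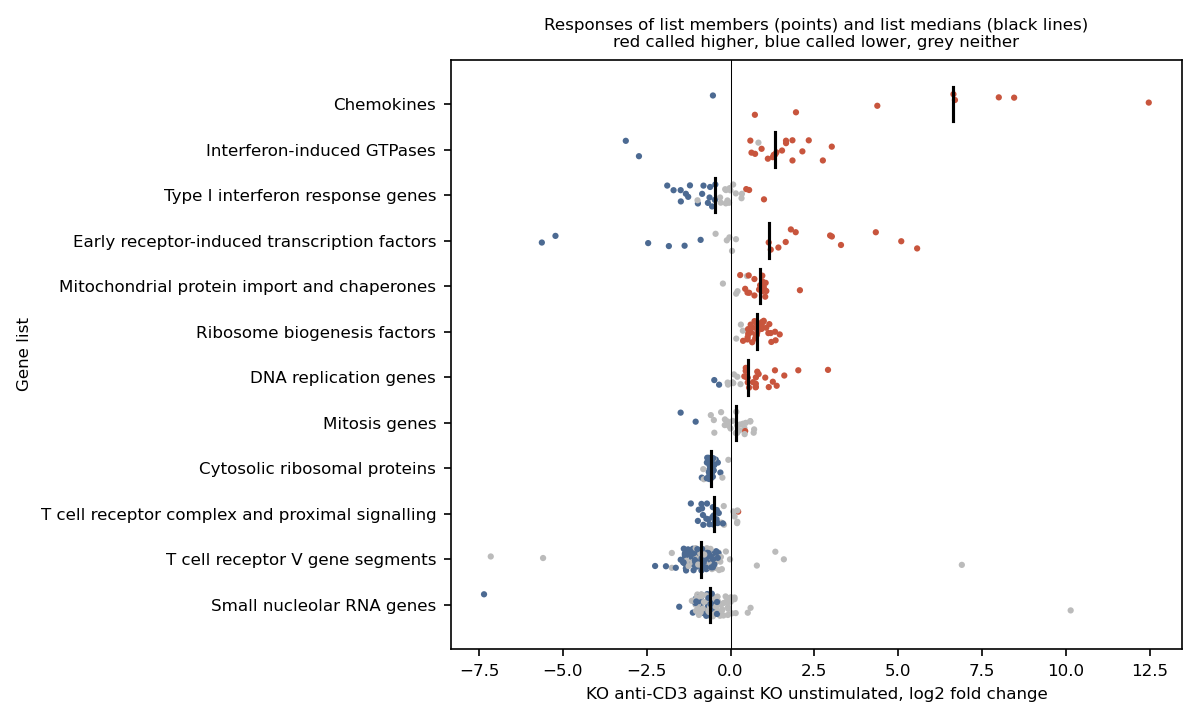
Log2 fold change of each tested member (points) of 12 gene lists in KO anti-CD3 against unstimulated cells, with list medians as black lines. Interferon-induced GTPases centre on 1.33 and type I interferon response genes on -0.46, and ribosome biogenesis factors on 0.78 and cytosolic ribosomal proteins on -0.59.

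The last question was where the KO response differed from the response of WT cells to the same antibody. The difference of the responses, tested as an interaction in the same fit, was called above 0 for 8 genes (0.0492%) and below 0 for 1 (0.00616%), while 2399 genes had an unadjusted p under 0.05. Cdk6, a kinase of G1, had the smallest adjusted p. It rose in KO cells (52.6 ± 7.84 to 164 ± 26.1 CPM, SD, n = 3) and not detectably in WT cells (49.8 ± 6.8 to 47.4 ± 0.974 CPM), a difference of 1.72 ± 0.22 (adjusted p = 0.00887). Its partner Ccnd2, cyclin D2, had a KO response of 0.66 ± 0.097, a WT response of -0.19 ± 0.097 and a difference of 0.85 ± 0.14 (adjusted p = 0.0367). Plk2, a p53-inducible kinase, had a positive KO response (0.74 ± 0.23, adjusted p = 0.0172) and a negative WT response (-1.27 ± 0.24, adjusted p = 0.000752). The other genes with a larger KO value were Cish (2.14 ± 0.37), Cd200, a ligand of an inhibitory receptor (2.21 ± 0.39), the chaperone gene Hsph1 (1.14 ± 0.17), Umps (0.80 ± 0.14) and Igfbp4, which fell in both genotypes and less in KO cells (1.32 ± 0.20).

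All 21 interferon-induced GTPases had a lower estimated response in KO than in WT cells, with medians of 1.33 and 2.13, and none of these differences was called by edgeR (12 with DESeq2, 11 with voom and 12 with the GC correction). Unstimulated KO replicate 3 was the highest unstimulated KO library for 20 of the 21. Without it 18 of the 21 had the lower estimate in KO cells, the KO median was 1.55 and 1 difference was called. Gbp2 averaged 175 ± 52.3 and 1412 ± 71.7 CPM in KO and 141 ± 7.2 and 1595 ± 126 CPM in WT cells (-0.49 ± 0.20, adjusted p = 0.281). Lower KO estimates were not particular to the GTPases. The KO value was the larger in only 3 of 33 type I interferon response genes (medians -0.46 in KO and 0.025 in WT cells). It was so in 4 of 14 genes of interferon-gamma signalling (0.66 and 0.98) and 4 of 19 immunoproteasome and MHC class I loading genes (0.098 and 0.34).

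Ifng itself responded by 5.98 ± 0.37 in KO and 3.41 ± 0.33 in WT cells. The difference of 2.57 ± 0.45 had adjusted p = 0.0502, just outside the threshold, as did that of Nr4a3 (1.19 ± 0.22, adjusted p = 0.0502). Gzmb differed by 2.13 ± 0.61 (adjusted p = 0.19), Il2ra by 1.66 ± 0.42 (adjusted p = 0.146) and Orc1 by 1.84 ± 0.43 (adjusted p = 0.12), all uncalled. Pdcd1, Rgs16 and Mx1 had responses of nearly the same size, 3.89, 5.17 and -3.12 in KO cells and differences of -0.054 ± 0.24, 0.067 ± 0.27 and -0.073 ± 0.31. Several growth lists had medians that were higher in KO than in WT cells without any called member: 0.78 against 0.29 for ribosome biogenesis factors, where 34 of 35 members had the larger value in KO cells, 0.76 against 0.26 for translation factors and 0.45 against -0.0083 for splicing factors, beside 0.024 and -0.0037 over all genes. For DNA replication genes the medians were 0.53 and 0.18, and for mitosis genes 0.17 and -0.52. The GC tilt of the libraries also differed along this comparison. In KO cells it was 0.17 to 1.14 unstimulated and 0.10 to 0.25 after anti-CD3. In WT cells it was -0.74 to -0.31 unstimulated and -0.41 to -0.12 after anti-CD3. The part of this tilt in the medians was not tested. The number of called differences depended strongly on the processing, from 0 to 607 genes above 0 and from 0 to 232 below it over the alternatives. Without unstimulated KO replicate 2 there were 11 and 9, and without any single library of the other KO or WT groups 0 to 5 and 0 to 3.

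**Figure D5:**
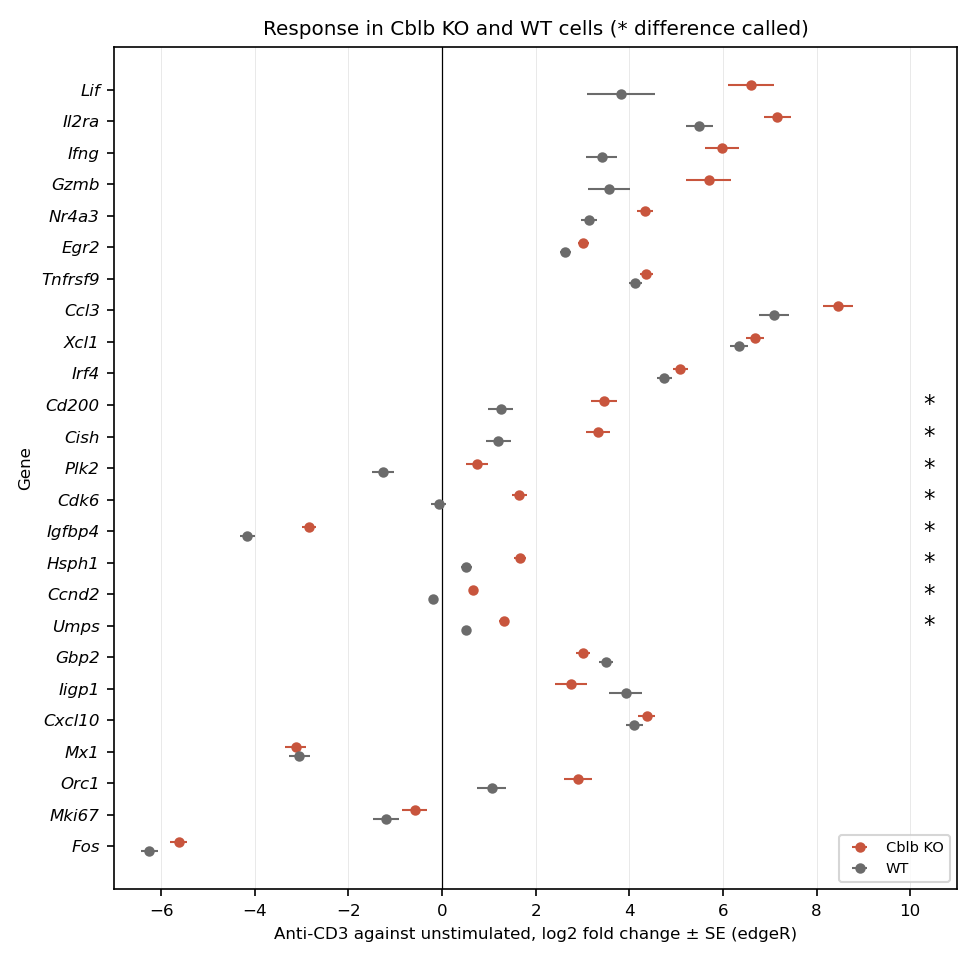
Log2 fold change ± SE of 25 genes for anti-CD3 against unstimulated cells in KO (red) and WT (grey), with an asterisk where the difference of the responses was called. Cdk6 and Ccnd2 lie near 0 in WT cells, and Plk2 has opposite signs.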

How the data were processed

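Per the labels' protocols, CD8+ T cells were isolated with magnetic beads, and stranded libraries were made from their total RNA once ribosomal RNA had been depleted. The deposited values were counts per gene made by the authors, which the submitters' processing notes link to STAR 2.5.2, RSEM 1.3.0 and GRCm38. For the annotation release, the strand setting and any rounding, nothing is given in the sources used here. Genes were filtered with filterByExpr by group, leaving 16246 of 53679 identifiers, and all 17 libraries were fitted in edgeR 4.0.16 (R 4.3.3) with TMM scaling, 1 coefficient per group and the robust quasi-likelihood test. The contrasts were anti-CD3 minus unstimulated in KO cells and the difference of that response from the same one in WT cells. SE is the absolute log2 fold change divided by the square root of the F statistic, and CPM uses TMM-scaled totals of the tested genes, or of all identifiers for marker sums and pooled ratios.

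Alternatives, 21 in all, were RLE scaling, DESeq2 1.42.0, limma 3.58.1 voom with quality weights, no filter, at least 1 CPM in 3 libraries, a fit of the compared groups alone, a block for the replicate number, a correction for GC content, both together, and leaving out each of 12 libraries. The fit was tested on simulated data for the KO contrast over 15827 genes: 76.5% of 200 genes changed 2-fold were called, and 15 unchanged genes. Genes named are a panel of activation genes, the 20 highest and 20 lowest called protein-coding genes with a mean log2 CPM of at least 2 and separate groups, up to 5 called members per direction and 3 uncalled ones per gene list, up to 10 genes per direction of the KO minus WT difference, the 5 most abundant genes per group, and markers. Some items that this rule names are not reported here. Promoters were printed for the most increased called members with a single table entry. Members and lists were chosen with earlier results of these data known. Intervals are exact at 95%, and they and the floor of 3 counts cover counting error only.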

Additional observations from a re-analysis of the deposited data

Results flagged for a closer look

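For 8 genes the difference of the anti-CD3 responses, KO minus WT, was itself called above 0. In Igfbp4 this was a smaller fall in KO cells. Cd200, the ligand of an inhibitory receptor, differed most: its response was 3.46 ± 0.29 in KO and 1.25 ± 0.27 in WT cells, a difference of 2.21 ± 0.39 (adjusted p = 0.0479). Cish, the STAT5 feedback inhibitor, averaged 3.78 ± 1.27 CPM unstimulated and 36.7 ± 8.84 CPM stimulated in KO cells and 2.73 ± 1.11 and 6.03 ± 0.727 CPM in WT cells (SD, n = 3), a difference of 2.14 ± 0.37 (adjusted p = 0.0441). For Plk2 the difference was 2.01 ± 0.33 (adjusted p = 0.0376) and for Cdk6 1.72 ± 0.22 (adjusted p = 0.00887). Igfbp4, which encodes a binding protein of insulin-like growth factors, had responses of -2.84 ± 0.15 in KO and -4.16 ± 0.16 in WT cells, a difference of 1.32 ± 0.20 (adjusted p = 0.03). Hsph1 had a difference of 1.14 ± 0.17 (adjusted p = 0.03), Ccnd2 of 0.85 ± 0.14 (adjusted p = 0.0367) and Umps of 0.80 ± 0.14 (adjusted p = 0.0441). Cdk6 was called in 18 of 21 alternatives (adjusted p 1.27e-08 to 0.0585) and the other genes in 8 to 12, with the highest adjusted p at 0.168 or 0.169.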

How the results depend on the processing

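The counts over all genes in the KO response moved by less than 1.5 times under all 21 alternatives, with 2532 to 3118 higher and 2218 to 3054 lower when 1 library was left out. Of 5989 called genes, 4494 were called in the same direction without the deep unstimulated KO replicate 2 (4783 calls in all). Counts of calls in single gene lists moved by more than that in 29 cases with voom, 16 with the GC correction, 18 with the GC correction and the block, and 9 to 12 without each KO library. The difference between the KO and WT responses was less stable. Against 8 genes above and 1 below, RLE scaling gave 6 and 2, DESeq2 118 and 98, voom 607 and 232, no filter 47 and 16, a minimum of 1 CPM 10 and 3, only the 4 groups compared 282 and 193, and the GC correction 280 and 113. Leaving out 1 library gave 0 to 11 above and 0 to 9 below: 11 and 9 without KO unstimulated replicate 2, 5 and 3 without KO unstimulated replicate 3, 5 and 0 without WT unstimulated replicate 1, 2 and 0 without WT anti-CD3 replicate 3, and at most 1 in either direction without any other single library. The cause was not tested.

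With the replicate number as a block, the KO response had 3089 genes higher and 2671 lower and the difference 29 above and 2 below, and with the block and the GC correction together the difference had 584 and 216. No pairing by number was visible: same-numbered KO libraries had correlations of deviations of -0.064, -0.091 and -0.065, and differently numbered ones of -0.069 to 0.144. Such weak values cannot show whether the samples were paired. Ltb was called with the opposite sign to its main value, 0.21 with the GC correction and 0.22 with the block added, and Foxp3, Lars2, Prf1, Slc38a2 and Tgfb1 crossed 0 without a call. Named genes whose call was lost without 1 KO library or more were Cblb, Ccl5, Ccnd3, Ccr7, Cdkn2c, Chaf1b, Coro1a, Ctla4, Dnmt1, Eomes, Gzmk, Il16, Mcl1, Ndc80, Ndfip1, Orai1 and Plk2, with adjusted p up to 0.271. Among uncalled genes, Batf and Prdm1 were called lower under several alternatives, Cd69 and Mki67 lower under 3 each, and Cd44 and Atf4 higher under 3 each. Bop1, Npm3 and Polr1c were called higher with the GC correction. Depth limits genes near 1 CPM, of which few reads were counted in unstimulated replicates 1 and 3.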

Other observations

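Some gene families without a list of their own above were counted after their values had been seen, so no support is drawn from them. The Trav and Trbv families overlap with the variable gene segments counted above, so their calls are largely the same calls. All counts here are to be set beside the 19.6% of all genes called higher and 17.3% called lower. Variable segments of the receptor alpha chain (Trav) had 0 of 92 tested members called higher and 50 lower (median -1.04). Those of the beta chain (Trbv) had 0 of 23 and 18 (median -0.57). Subunits of the RNA exosome (Exosc), which trims and degrades RNA, had 6 of 10 called higher and 0 lower. Killer lectin-like receptor genes (Klr) had 3 of 20 higher and 7 lower, the higher share being below that of all genes. Schlafen genes (Slfn) had 3 of 8 higher and 4 lower. Zinc finger genes named Zfp had 34 of 317 higher and 32 lower, both below the shares of all genes. Long intergenic noncoding RNA genes had 89 of 558 tested members higher (15.9%) and 94 lower (16.8%), near or below the shares of all genes, with a median of 0.0018.

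Lars2 was among the 5 genes with the highest CPM in stimulated KO cells, at 19366, 19014 and 19781 CPM, and was at 11293, 1011 and 40396 CPM in the unstimulated libraries, so its groups overlapped. The 7SL and 7SK RNAs took 7.33% to 8.12% of counts in the anti-CD3 and 7.83% to 13.1% in the unstimulated KO libraries, and mitochondrial genes 2.41% to 2.89% and 2.25% to 3.91%.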
